A study of Mus musculus with 12 samples.

Results

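Bulk RNA sequencing compared matrix fibroblasts of mouse lungs with metastasis (M-MF) with matrix fibroblasts of normal mouse lungs (N-MF). The comparison holds 6 of the 12 libraries of the series, 3 per group, chosen by their labels, and every gene with at least 1 FPKM in at least 3 of the 12 libraries, which left 13300 of 20606 genes. FPKM is the number of fragments of a gene scaled for its length and for the fragments mapped. N-MF are lung fibroblasts of normal mice and M-MF those of mice with lung metastasis, and the series title places the metastases in breast cancer. The other 6 libraries hold a second purified subgroup, abbreviated MyoF, from the same kinds of mice (N-MyoF and M-MyoF). The sources used here give neither the markers by which the subgroups were purified, nor the strain, age and sex of the mice, the tumour line or the number of mice per library. Separate mice are not named for the libraries of a group. The p-values therefore describe the spread among these libraries alone, and that spread may be technical.

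Matrix fibroblasts are the stromal cells that secrete and organise the collagen, proteoglycan and elastic fibre network around the airspaces and vessels of the lung. They also send and receive signals of the BMP, Wnt, Hedgehog and TGF-beta families that maintain the epithelium beside them. In injured or tumour-bearing tissue, fibroblasts can divide, secrete chemokines and acute phase proteins and rebuild the matrix. Tdo2, named in the series title, encodes tryptophan dioxygenase, the enzyme at the entry of the kynurenine pathway.

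A gene was called when it had a limma adjusted p under 0.05 and differed at least 2-fold between the group means of log2(FPKM + 1). Of the 13300 genes, 9.32% were called higher in M-MF (1240 genes) and 2.54% lower (338 genes). The rises were more numerous and also larger: 45 genes rose by 16-fold or more and none fell that far, with 354 rises and 23 falls of 4- to 16-fold and 841 rises and 315 falls of 2- to 4-fold. At any fold, 46.3% of genes passed higher (6153) and 31.8% lower (4229), and for 79.8% of genes the groups did not overlap. Under the 3 scalings named next, in their order, 5259, 4920 and 4354 genes passed higher at any fold and 5281, 5691 and 6432 lower, so lower genes then outnumbered higher ones. The 2-fold calls were 1091 higher and 452 lower after rescaling to equal sums, 1076 and 525 after median-ratio scaling, and 942 and 561 after quantile normalization. These scalings moved the median log2 difference of all genes from 0.08 to -0.01, -0.04 and -0.10.

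Deposited FPKM summed to 528176 to 532244 in N-MF and to 571294 to 574574 in M-MF, and the read depth is unknown. The top 10 genes took 14.6% to 14.7% of the N-MF sums and 9.41% to 9.45% of the M-MF sums, and Gsn alone 4.43% to 4.54% and 1.65% to 1.67%. Libraries of 1 group correlated at 0.996 to 0.998, and with 3 against 3 libraries an exact permutation test of a single value cannot go below p = 0.1. The 4 libraries numbered 3, 1 per group, stood apart on a minor principal component with 0.765% of the variance (scores of -10.1 to -7.24 against 2.57 to 6.01). Without them 1234 genes were called higher and 344 lower.

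**Figure D1:**
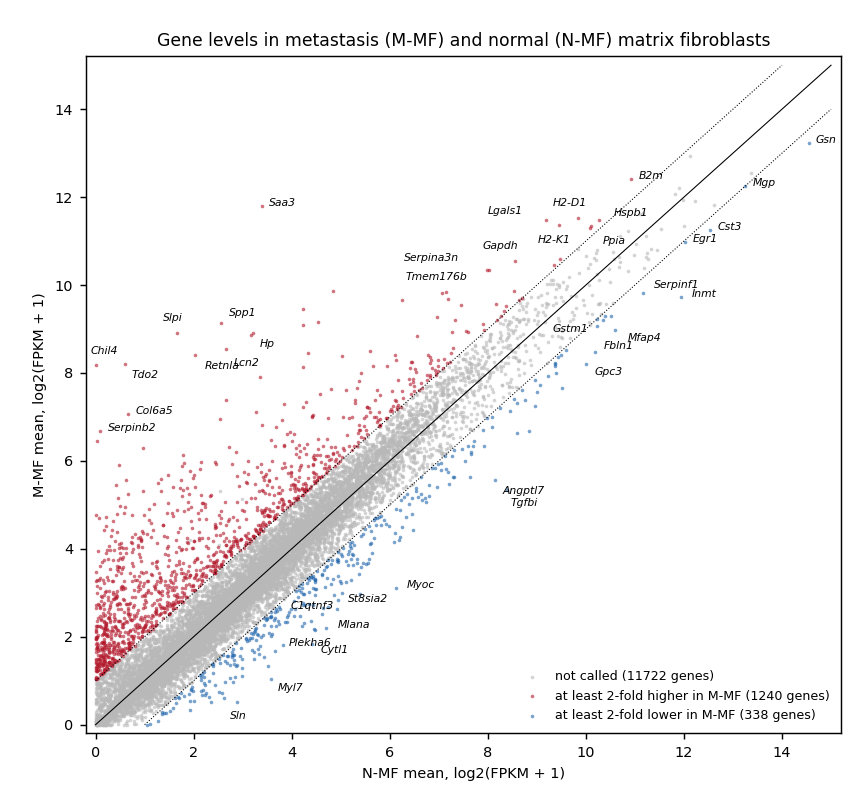
Mean level of each tested gene in N-MF (x axis) and M-MF (y axis), both as log2(FPKM + 1), with the line of equality and dotted lines at 2-fold. The 1240 genes called higher (red) reach from near 0 in N-MF up to Saa3, while the 338 called lower (blue) lie close to the lower 2-fold line, with Gsn at the top right.

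The label was checked against fibroblast markers. Dcn, the collagen-binding proteoglycan decorin, was at 10582, 10453 and 10569 FPKM in the N-MF libraries and at 5929, 5911 and 6028 in the M-MF libraries. Col1a1 stood at 2960, 3002 and 2872 FPKM in N-MF and 2487, 2528 and 2421 in M-MF, and Pdgfra, a receptor that marks lung fibroblasts, at 88.2 to 89.5 and 73.9 to 75.6. The mean of Dcn was lower in N-MyoF (857 FPKM) and M-MyoF (498 FPKM), as was that of Pdgfra (9.37 and 9.81 FPKM). Pdgfrb was instead higher in N-MyoF (120 FPKM) and M-MyoF (92.2 FPKM) than in N-MF (87.7 FPKM) and M-MF (43.7 FPKM). Acta2 and Tagln were also highest in MyoF, and both were called higher in M-MF. Acta2 was at 22.97 to 24.71 FPKM in N-MF, 78.28 to 80.94 in M-MF (log2 difference 1.69) and 617.2 to 640.5 in N-MyoF. Tagln was at 10.32 to 11.44, 27.63 to 28.47 (1.31) and 288.97 to 296.49 FPKM. Of 13 tested myofibroblast markers 3 were called higher and 3 lower, with a median log2 difference of -0.16. Of 12 pan-fibroblast markers 9 passed lower in M-MF at any fold and 2 higher. Thy1 rose from a mean of 17.1 to 30.9 FPKM and Col3a1 from 3599 to 4306, neither by 2-fold. The leukocyte gene Ptprc was at 0.44 to 0.74 FPKM in the 6 MF libraries, although of 10 general leukocyte markers 3 (Arhgdib, Cd53 and Itgb2) were called higher and the list summed to 31.1 to 33.5 FPKM in N-MF and 178 to 189 in M-MF, of which Arhgdib made up 13.1 to 13.5 and 150 to 161. The macrophage genes Adgre1 and Csf1r were at 0.03 to 0.49 and 1.12 to 1.58 FPKM, and the epithelial cadherin Cdh1 at 1.44 to 1.97. Sftpc and Scgb1a1, secreted by alveolar type 2 and club cells, were nonetheless abundant, at 1213 to 1247 and 1008 to 1033 FPKM in N-MF and 1104 to 1119 and 1588 to 1615 in M-MF.

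Markers of other cell types also moved between the groups. Of 11 tested mesothelial markers 10 were called higher, and the whole list of 13 summed to 71.8 to 75.7 FPKM in N-MF and 571 to 583 in M-MF, with Wt1 at 1.82 to 2.08 and then 41.2 to 42.2. Of 16 neutrophil markers 11 were called higher, and 7 with a pseudocount of 5. Their sums were 49.6 to 54.7 and 647 to 653 FPKM, of which Lcn2, also an acute phase gene, made up 4.83 to 5.89 and 365 to 374. Of 13 tested carcinoma epithelial markers 7 were called higher, with sums of 72.6 to 75 and 496 to 500 FPKM over 15 genes. Epcam, a defining gene of carcinoma cells, did not pass a 2-fold change (1.86 to 1.98 and 2.19 to 2.9 FPKM). Cdh1 was the 1 member of this list that passed lower at any fold (1.63 to 1.97 and 1.44 to 1.61 FPKM). Of 9 tested cardiac muscle markers 5 were called lower, and 2 with a pseudocount of 5. Their sums were 50.2 to 51.8 and 13.5 to 15.7 FPKM over 10 genes. Sums for 19 macrophage and monocyte markers were 326 to 346 and 774 to 824 FPKM, of which Chil3 made up 7.46 to 8.96 and 453 to 474. Chil3 was the 1 of 15 tested that was called higher, and Marco was at 0 in all 6 libraries. At any fold 2 of the 15 passed higher and 5 lower, with a median log2 difference of -0.12. Of 15 endothelial markers 3 were called higher and 1 lower, with sums of 370 to 382 and 1146 to 1159 FPKM, of which Car4 made up 17.3 to 18.1 and 692 to 707. Under the 3 scalings Car4 was the 1 endothelial marker still called higher. Of 4 tested B and plasma cell markers 2 were called higher, Jchain and Mzb1, with sums of 3.16 to 3.47 and 31 to 32.2 FPKM over 7 genes and Jchain at 0.2 to 0.44 and then 25.5 to 27.5. The part of other cells in the results that follow was not tested, and in bulk samples fewer cells of a type and less RNA per cell cannot be told apart.

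**Figure D2:**
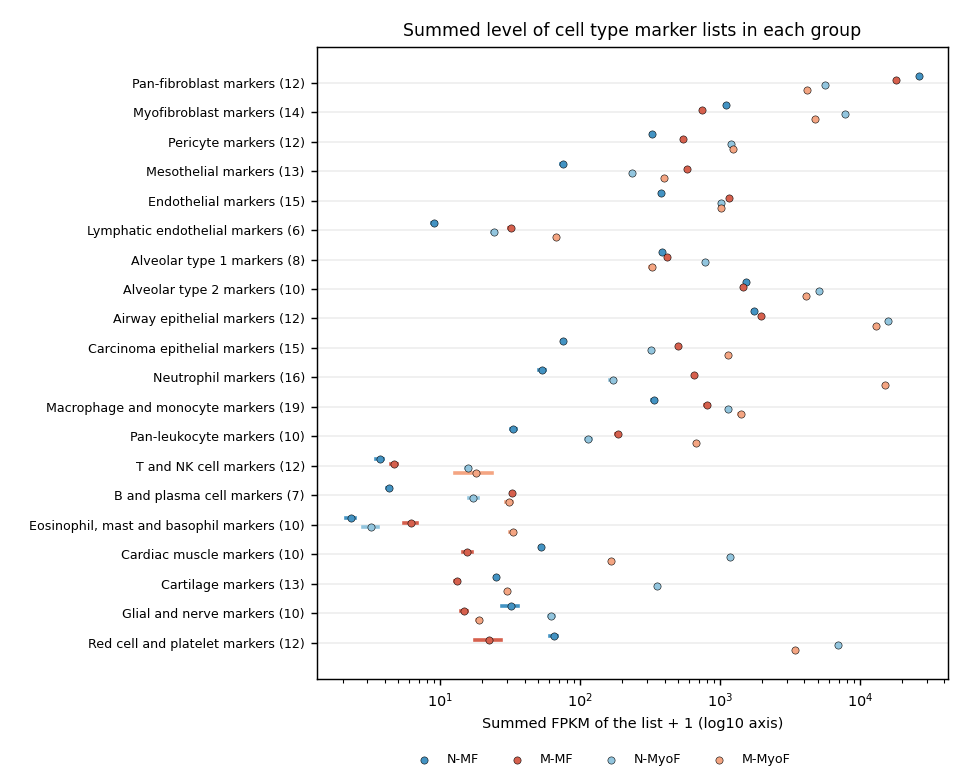
Summed FPKM plus 1 (x axis, log10) of each cell type marker list, with the number of genes summed in brackets, in the 4 groups; bars run from the lowest to the highest library and points mark their midpoint. Mesothelial, neutrophil and carcinoma epithelial sums are higher in M-MF than in N-MF, cardiac muscle and pan-fibroblast sums lower.

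Promoter sequences are shown for Tdo2, the gene of the series title, for Saa3, which rose most, and for genes of 3 groups that rose together: mitosis genes, amino acid synthesis genes and interferon response genes. Each is the 120 bases before the RefSeq start on GRCm38.p6, 5′ to 3′ on the gene's strand, at chr3:81975729-81975848 (minus, Tdo2), chr7:46715677-46715796 (minus, Saa3), chr2:164769809-164769928 (plus, Ube2c), chr11:99024190-99024309 (minus, Top2a), chr10:69352913-69353032 (minus, Cdk1), chr6:7693210-7693329 (minus, Asns), chr11:120643749-120643868 (minus, Pycr1), chr5:120907526-120907645 (minus, Oas1a) and chr11:58199436-58199555 (plus, Igtp). Capitals mark, on either strand, the CCAAT box in Tdo2, CCAAT boxes and the cell cycle element TTTGAA in the 3 mitosis genes, TGATGNAA, bound by ATF4 with C/EBP proteins, in Asns and Pycr1, and the interferon-stimulated response element (ISRE) in Oas1a and Igtp. Only the motifs just named for each gene are in capitals: the other motifs searched also occur, in lower case, in Cdk1 (ACGTG), Asns (ACGTG and GCGTG), Pycr1 (CCAAT), Oas1a (CCAAT and TTTGAA) and Igtp (TTTGAA and ACGTG). In the 120 bases of Saa3 none of the motifs searched was found. Every gene shown for the 3 groups had to hold the motifs searched for its group, so the motifs shown are selected. Genes were taken in order of their rise, with Tgtp genes and those of a set chromosome passed over. Ube2c and Asns also had the largest rise of their lists.
Tdo2: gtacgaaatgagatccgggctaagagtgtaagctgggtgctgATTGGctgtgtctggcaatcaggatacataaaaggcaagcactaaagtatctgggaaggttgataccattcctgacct
Saa3: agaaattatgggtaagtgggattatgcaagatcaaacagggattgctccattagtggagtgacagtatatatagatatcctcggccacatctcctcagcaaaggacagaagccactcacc
Ube2c: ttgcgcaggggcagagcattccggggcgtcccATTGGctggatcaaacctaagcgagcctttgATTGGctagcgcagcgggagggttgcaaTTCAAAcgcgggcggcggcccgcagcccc
Top2a: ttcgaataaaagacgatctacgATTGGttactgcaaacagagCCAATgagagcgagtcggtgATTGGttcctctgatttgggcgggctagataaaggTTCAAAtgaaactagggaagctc
Cdk1: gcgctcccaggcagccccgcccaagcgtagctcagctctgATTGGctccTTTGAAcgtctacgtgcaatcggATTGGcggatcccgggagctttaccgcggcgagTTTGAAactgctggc
Asns: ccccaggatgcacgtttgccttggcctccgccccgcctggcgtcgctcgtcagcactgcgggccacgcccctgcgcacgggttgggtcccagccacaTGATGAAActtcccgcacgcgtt
Pycr1: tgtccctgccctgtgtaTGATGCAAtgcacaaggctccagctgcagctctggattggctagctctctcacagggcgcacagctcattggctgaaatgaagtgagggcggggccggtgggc
Oas1a: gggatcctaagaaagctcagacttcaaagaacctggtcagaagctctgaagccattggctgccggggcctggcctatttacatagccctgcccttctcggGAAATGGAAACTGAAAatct
Igtp: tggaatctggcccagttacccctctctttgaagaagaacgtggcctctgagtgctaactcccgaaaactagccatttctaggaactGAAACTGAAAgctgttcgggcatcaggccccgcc

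The genes with the largest rises went from traces to abundant messages. Saa3, an acute phase protein, stood at 10.03, 7.16 and 11.2 FPKM in the N-MF libraries and at 3551, 3622 and 3555 in the M-MF libraries. Tdo2 stood at 0.49, 0.59 and 0.44 FPKM in N-MF and 295, 298 and 291 in M-MF. Slpi, an inhibitor of leukocyte proteases, stood at 2.65, 1.83 and 1.99 and then 480, 481 and 469. For all 3 genes every M-MF library lay far above every N-MF library. The log2 differences were 8.44 ± 0.109 for Saa3, 7.62 ± 0.0561 for Tdo2 and 7.25 ± 0.0819 for Slpi (limma adjusted p of 2.21e-15 or less; values after ± are SE for log2 differences and SD, n = 3 libraries, for means).

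By absolute amount the ranking was different. Among the genes called higher, the largest gains in mean FPKM after Saa3 were those of B2m, the light chain of MHC class I, with 3466 FPKM more in M-MF, and of Lgals1, the galectin that binds cell surface glycans, with 2295 more. H2-D1 and H2-K1, heavy chains of MHC class I with close copies, followed with 2013 and 1958 more, and Hspb1, a small heat shock protein, with 1638 more. Lgals1 stood at 565, 573 and 598 FPKM in N-MF and at 2833, 2908 and 2878 in M-MF, with no overlap (log2 difference 2.31 ± 0.0198, limma adjusted p = 7.16e-17). The glycolytic enzyme Gapdh went from a mean of 377 ± 9.95 to 1489 ± 17.5 FPKM and Ppia, a protein-folding isomerase, from 1081 ± 24.2 to 2535 ± 35.5. Both are often taken as unchanging reference genes, and here they had log2 differences of 1.98 and 1.23. Tmem176b, a membrane protein of intracellular vesicles, went from 258 ± 5.7 to 1306 ± 15.3 FPKM and the protease inhibitor Serpina3n, which has close copies, from 253 ± 1.82 to 1307 ± 6.45.

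The largest loss in mean FPKM was that of Gsn, the actin-severing protein gelsolin and the most abundant message of all 6 libraries. It stood at 24170, 23940 and 23385 FPKM in N-MF and at 9622, 9571 and 9416 in M-MF, a log2 difference of -1.32 ± 0.018 (limma adjusted p = 3.34e-15). Quantile normalization, which gives the top gene of each library the same value, put it at 0. Cst3, an inhibitor of cathepsins, went from 5904 ± 60.3 to 2452 ± 16.7 FPKM, and Gpc3, a heparan sulfate proteoglycan of the cell surface, from 1022 ± 0.798 to 294 ± 1.69. Inmt, a methyltransferase abundant in lung, stood at 3959, 3952 and 3845 and then 837, 846 and 843 FPKM, and the groups did not overlap (-2.22 ± 0.0165, limma adjusted p = 2.08e-17). Mgp, the matrix protein that inhibits calcification, lay at the limit of the 2-fold call (9777 ± 196 to 4880 ± 66 FPKM, -1.0021). It missed that limit without M-MF replicate 1 or 2 or N-MF replicate 3 (-0.9962, -0.9969 and -0.9856), without the 4 libraries numbered 3 (-0.9968), and after quantile normalization (-0.40).

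**Figure D3:**
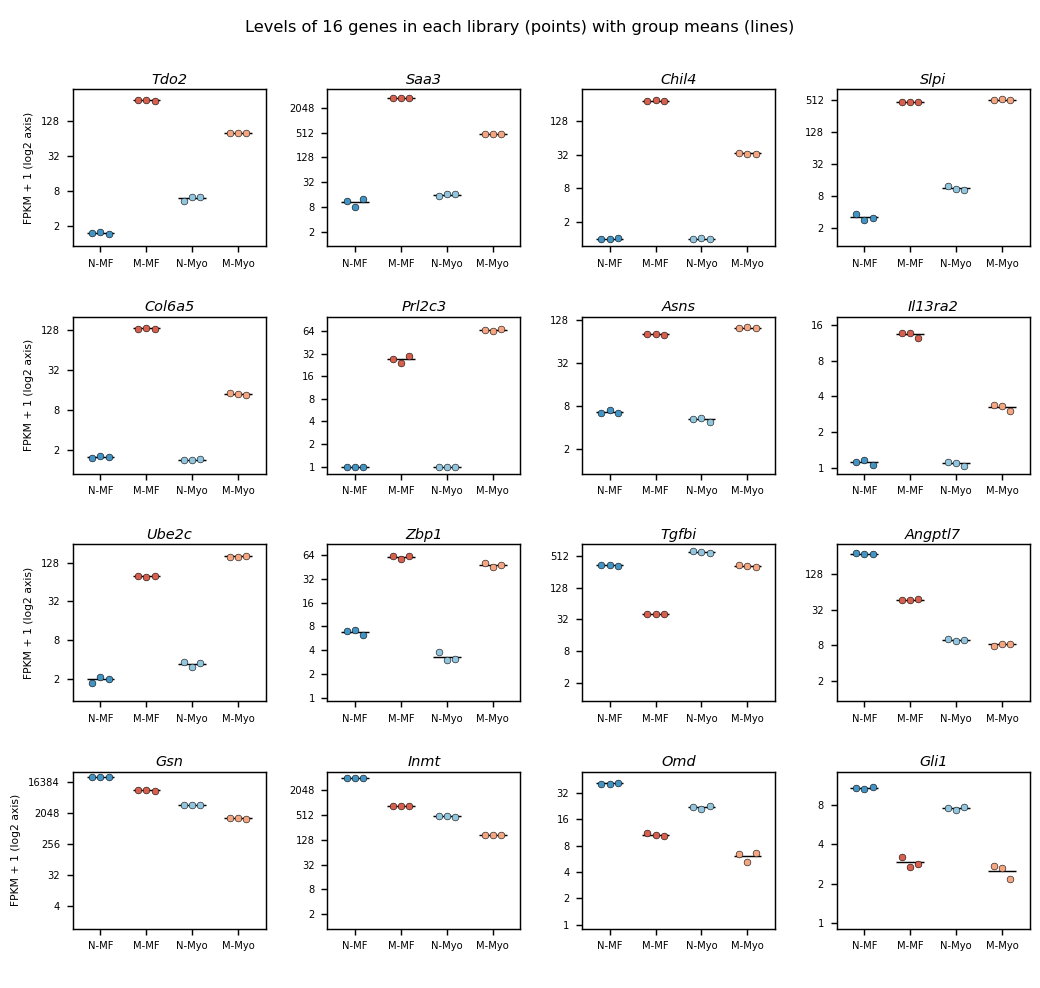
FPKM plus 1 of 16 genes in each library (points; y axes on a log2 scale) with the group means (lines), for N-MF, M-MF, N-MyoF and M-MyoF (the last pair marked Myo). The 3 points of a group lie close together beside the distance between N-MF and M-MF, and Saa3, Tdo2, Chil4, Col6a5 and Il13ra2 are higher in M-MF than in M-MyoF.

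Some genes were near absent in N-MF and clearly present in M-MF. Under 0.1 FPKM in each N-MF library and at least 5 FPKM in each M-MF library were 18 genes, and the reverse held for 0. Chil4, a chitinase-like protein, was listed at 0, 0 and 0.03 FPKM in N-MF and at 290, 297 and 282 in M-MF, and its split from the close copy Chil3 is uncertain. Serpinb2, an inhibitor of plasminogen activators, stood at 0.09, 0.07 and 0.05 and then 107, 97.9 and 100 FPKM. The unnamed gene model Gm40892 stood at 0.03, 0.01 and 0.01 FPKM in N-MF and 87.5, 85.4 and 85.9 in M-MF. Prl2c3, a prolactin-family hormone with close copies, was listed at 0 in all 3 N-MF libraries and stood at 26.0, 23.4 and 28.9 FPKM in M-MF. Others with a high M-MF mean were Pglyrp3, a peptidoglycan recognition protein (14.4 FPKM in M-MF), the adhesion molecule Chl1 (11.3), Clca1, a secreted protein of mucous cells (10.1), Syt13 (9.13), the ligand Wnt7b (8.80), and Krt14, a keratin of basal epithelium (8.61). Of the 18 genes, 7 were under 0.1 FPKM in each N-MyoF library too, and 13 had a higher mean in M-MyoF than in M-MF. Wnt7b, for example, stood at 19.8 FPKM in M-MyoF, 2.25 times its M-MF mean, while Chil4 stood there at 32.6, 0.112 times its M-MF mean.

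Collagens changed one by one rather than together. None of 8 fibrillar collagen genes was called, and their median log2 difference was -0.09. Over all genes 11.9% were called in either direction, so 0 of 8 lies near that share. Of 19 other collagen genes 2 were called higher (10.5%, against 9.32% of all genes) and 4 lower (21.1%, against 2.54%). Col6a5, a collagen VI chain, stood at 0.53, 0.63 and 0.58 FPKM in N-MF and at 133, 134 and 133 in M-MF, without overlap (6.41 ± 0.0355, limma adjusted p = 1.76e-18). Col6a6, another chain of collagen VI, went from 5.21 ± 0.191 to 32.7 ± 0.334 FPKM (2.44 ± 0.0417). The basement membrane chains Col4a3 (10.4 ± 0.293 to 1.53 ± 0.0819 FPKM, -2.18 ± 0.0418) and Col4a4 (6.96 ± 0.477 to 1.14 ± 0.0902, -1.89 ± 0.054) fell, and so did Col15a1, which links basement membranes to the matrix (37.3 ± 1.03 to 11.4 ± 0.0945, -1.63 ± 0.0478). Col4a4 missed the 2-fold limit with a pseudocount of 5 (-0.96).

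Proteoglycans fell together and elastic fibre genes split. All 12 tested small leucine-rich proteoglycans, which bind collagen fibrils and set their thickness, passed lower at any fold, 6 of them at least 2-fold, and their median log2 difference was -1.02 against 0.08 for all genes. Omd, osteomodulin, stood at 40.1, 39.4 and 41.1 FPKM in N-MF and at 10.3, 9.50 and 9.31 in M-MF (-1.94 ± 0.0732, limma adjusted p = 5.37e-11). Podn and Aspn fell from 207 ± 5.08 to 80.0 ± 0.989 and from 351 to 140 FPKM. Of 17 elastic fibre genes 4 were called lower and 2 higher. Ltbp4, which positions elastin and latent TGF-beta, stood at 464, 454 and 457 and then at 101 FPKM in each M-MF library (-2.17 ± 0.0185, limma adjusted p = 7.13e-17). Mfap4 (1550 ± 20.6 to 504 ± 8.02 FPKM) and the fibulin Fbln1 (1159 ± 5.94 to 354 ± 2.52) also fell, while Efemp2, a fibulin needed for elastin crosslinking, rose from 113 ± 3.14 to 241 ± 6.41 FPKM. The call for Efemp2 was lost under the 3 scalings (0.98 after equal sums, 0.94 after median-ratio scaling and 0.77 after quantile normalization).

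Of 22 tested matricellular proteins, which sit in the matrix and act on cells, 4 were called higher and 5 lower. After equal sums 7 were called lower, and after median-ratio scaling or quantile normalization 8, with 4 higher in each. Spp1, osteopontin, stood at 4.24, 6.01 and 4.47 FPKM in N-MF and 562, 569 and 552 in M-MF (6.58 ± 0.0798, limma adjusted p = 1.27e-15). Fn1, fibronectin, stood at 92.7, 95 and 93 and then 453, 459 and 451 FPKM (2.27 ± 0.022). Tgfbi, an adhesion protein induced by TGF-beta, went the other way, from 341, 336 and 326 to 39.5, 39.8 and 39 FPKM (-3.05 ± 0.0299, limma adjusted p = 2.02e-16). None of these 3 genes overlapped between the groups. Smoc2, which binds calcium and growth factors, fell from 495 ± 4.82 to 151 ± 1.11 FPKM. In the TGF-beta pathway itself 0 of 15 genes were called higher and 2 lower (13.3%), against 9.32% and 2.54% of all genes. In so short a list a count of 0 lies near the share of all genes. The 2 called lower were the ligand Tgfb3 (184 ± 2.36 to 63.1 ± 1.63 FPKM) and Skil, which restrains the pathway's signal (35.3 to 16.6, with its call lost at a pseudocount of 5, -0.90).

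Among protease inhibitors more genes rose than fell, but their summed level fell. The 25 genes listed summed to 13965 to 14092 FPKM in N-MF and to 10586 to 10627 in M-MF. Of 24 protease inhibitors 15 were called higher and 4 lower, with a median log2 difference of 1.29. Serpine2, which inhibits thrombin and plasminogen activators, stood at 46.7, 47.1 and 48 FPKM in N-MF and 369, 362 and 360 in M-MF (2.92 ± 0.0171, limma adjusted p = 2.91e-18). The 4 that fell were the metalloprotease inhibitors Timp3 (728 ± 9.8 to 201 ± 2.19 FPKM) and Reck (35.8 ± 1.02 to 8.73 ± 0.165), Cst3, and Serpinf1, which encodes the antiangiogenic factor PEDF (2309 ± 48.4 to 896 ± 14.1). Of 13 matrix metalloproteases 3 were called higher and 2 lower, but with a pseudocount of 5 these counts were 0 and 1. Of 16 Adamts family genes 1 was called higher (6.25%, near the 9.32% of all genes) and 3 lower (18.8%, against 2.54%). Mmp3, stromelysin, fell from 532 ± 12.7 to 211 ± 4.82 FPKM, and Adamtsl2, which binds microfibrils, from 106 ± 1.61 to 32.5 ± 0.775. Several of the inhibitors that rose, Slpi among them, are also made by neutrophils and epithelium. The neutrophil and carcinoma epithelial marker sums rose as given above. Airway epithelial sums were 1720 to 1769 FPKM in N-MF and 1934 to 1963 in M-MF, and alveolar type 2 sums 1516 to 1548 and 1436 to 1449. The part of these cells in the rises was not tested.

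Of the genes listed for the Hedgehog, BMP and Wnt pathways more were called lower than higher. In the Hedgehog pathway, in which epithelial ligands act on fibroblasts, 0 of 11 genes were called higher and 4 lower, with a median log2 difference of -0.70. Gli1, the pathway's target and transcription factor, stood at 9.76, 9.64 and 10.1 FPKM in N-MF and 2.22, 1.68 and 1.83 in M-MF (-1.90 ± 0.0821, limma adjusted p = 2.18e-10). The coreceptors Boc (83.3 ± 2.12 to 31.6 ± 0.615 FPKM) and Cdon (14 ± 0.656 to 4.47 ± 0.215) also fell. Of 25 BMP and activin genes 4 were called lower and 1 higher, and the ligand Bmp4 stood at 106, 104 and 102 and then 35.4, 33.9 and 34.6 FPKM (-1.55 ± 0.0309, limma adjusted p = 1.08e-13). Of 28 Wnt pathway genes 5 were called lower and 2 higher. The antagonist Dkk2 fell from 23.9 ± 0.225 to 5.31 ± 0.265 FPKM, and Sfrp2, another secreted antagonist, rose from 27.8 ± 0.681 to 70.9 ± 0.951. With a pseudocount of 5, which weighs low genes less, 1 Wnt gene was called higher and 1 lower.

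Of 30 transcription factors of the lung mesenchyme tested, 23 passed lower and 4 higher at any fold, 5 and 2 of them at least 2-fold, with a median of -0.49. Tcf21, which specifies lung fibroblasts, stood at 201, 209 and 193 FPKM in N-MF and 71.6, 75 and 70.3 in M-MF (-1.46 ± 0.0389, limma adjusted p = 1.73e-12). Twist2 stood at 37.9, 40.7 and 39.1 and then 11.9, 11.8 and 11.6 FPKM, and Meox1 and Ebf2 fell from 17.8 ± 0.676 to 5.60 ± 0.253 and from 35.7 ± 0.764 to 12.7 ± 0.208. The groups did not overlap for any of these 4 factors. The genes of the alveolar fibroblast list had 4 of 18 called lower and 0 higher, and those of the adventitial list 6 of 20 lower and 2 higher, Il33 and Ccl11. Under each of the 3 scalings 0 adventitial genes were called higher, and 7 (equal sums), 7 (median ratio) and 8 (quantile) were called lower. Pi16, which marks adventitial fibroblasts, stood at 1326, 1303 and 1256 and then 602, 600 and 577 FPKM, whereas Dpp4, of the same list, stood at 28.6 to 30.1 and 34.6 to 35.6 and was not called.

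Retinoid and lipid-binding genes changed strongly one by one. Aldh1a2, which makes retinoic acid, stood at 16.8, 18.4 and 17.9 FPKM in N-MF and 149, 150 and 146 in M-MF, without overlap (3.00 ± 0.0573, limma adjusted p = 7.35e-14). Aldh1a3, a second enzyme of that step, rose from 25.8 ± 0.985 to 124 ± 1.67 FPKM, and Rbp4, the plasma carrier of retinol, fell from 388 ± 3.74 to 98.8 ± 3.66. Of all 16 retinoid genes 3 were called higher and 1 lower. Fabp4, a fatty acid carrier of adipocytes, endothelium and macrophages, stood at 17.6, 17.2 and 22.9 and then 346, 355 and 340 FPKM, and Fabp5 rose from 6.30 ± 0.311 to 73.1 ± 2.04. Of the other 19 lipid storage genes none was called higher. Aldh1a2 is also on the mesothelial list, whose sum, which includes Aldh1a2 itself, rose in the same libraries. Hsd11b1, which regenerates active glucocorticoid, rose from 159 ± 4.81 to 587 ± 12.5 FPKM, and Cyp7b1, an oxysterol hydroxylase, from 11.1 ± 0.473 to 62.5 ± 1.06.

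Genes of cell division rose together. All 38 mitosis genes were called higher, with a median log2 difference of 2.86, and 17 of 34 genes of DNA replication, 10 of 26 of DNA repair and 9 of 27 of pentose phosphate and nucleotide synthesis were called higher and 0 lower. Ube2c, an ubiquitin-conjugating enzyme that drives the exit from mitosis, stood at 0.72, 1.14 and 1.01 FPKM in N-MF and 79.8, 75.6 and 78.2 in M-MF (5.34 ± 0.0755, limma adjusted p = 4.55e-15). Mcm6, a subunit of the replicative helicase, rose from 2.38 ± 0.155 to 35.7 ± 0.429 FPKM, and Tk1, thymidine kinase, from 0.683 ± 0.21 to 26.5 ± 0.636. With a pseudocount of 5, 26 of the 38 mitosis genes, 7 DNA replication genes, 1 DNA repair gene and 3 nucleotide synthesis genes were called. Under the 3 scalings, in the same order as above, the calls were 15, 14 and 11 for DNA replication, 5, 7 and 5 for DNA repair and 5, 4 and 3 for nucleotide synthesis. Among 10564 tested genes with a RefSeq window from 250 bases before the start to 50 after it, TTTGAA was found on either strand in 12.4%, and in 24 of the 31 mitosis genes with a window (77.4%). CCAAT was found in 39% and in 23 of the 31 (74.2%). Which cells of the libraries carried these messages was not tested.

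Genes that make amino acids and charge tRNAs rose as well. Of 21 genes of serine, folate and proline synthesis 13 were called higher and 0 lower, with a median log2 difference of 1.24. Asns, asparagine synthetase, stood at 5.36, 6.05 and 5.24 FPKM in N-MF and 78.8, 80.5 and 75.9 in M-MF (3.6 ± 0.0514, limma adjusted p = 5.07e-15). Psat1, of serine synthesis, stood at 4.34, 4.93 and 3.89 and then 62.3, 62.2 and 59.9 FPKM, and Mthfd2, of mitochondrial folate metabolism, rose from 2.91 ± 0.195 to 21.3 ± 0.603. All 20 tRNA synthetases passed higher at any fold, 5 of them at least 2-fold, with Vars, for valine, from 12.9 ± 0.518 to 39.4 ± 0.81 FPKM. After quantile normalization 1 of the 20 was called at 2-fold. Chac1 and Trib3, known as targets of the stress factor ATF4, rose from 0.927 ± 0.301 to 15.5 ± 0.423 and from 4.40 ± 0.266 to 21.4 ± 0.908 FPKM, while the 31 genes of the unfolded protein response and folding had 9 called higher, 0 lower and a median of 0.37. TGATGNAA was found in 2.37% of all windows and in 3 of the 16 windows of the amino acid group (18.8%).

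Energy genes did not move alike. Of 23 glycolysis genes 15 were called higher (65.2%), with a median log2 difference of 1.4. Called higher were also 2 of 31 respiratory chain subunits (6.45%, median 0.58) and 0 of 25 genes of the TCA cycle and fatty acid oxidation (median 0.26). Over all genes 9.32% were called higher, and the respiratory chain count lies near that share. None of the 3 groups had a gene called lower. Eno1, enolase, stood at 139, 137 and 144 FPKM in N-MF and 904, 908 and 940 in M-MF (2.70 ± 0.0246, limma adjusted p = 1.09e-16). Of 20 hypoxia targets 8 were called higher and 0 lower. Car9, a carbonic anhydrase induced by low oxygen, stood at 0.03, 0.10 and 0.03 and then 8.54, 9.57 and 8.31 FPKM, while Egln3, an oxygen-sensing hydroxylase, stood at 1.09, 1.31 and 1.45 and then 31.6, 31.5 and 31.4. The groups did not overlap for any of these genes. The hypoxia response core ACGTG was found in 25.3% of all windows and in 11 of the 16 windows of the hypoxia targets (68.8%), and in 23.7% of the windows of all genes called higher. The core bound by the aryl hydrocarbon receptor, GCGTG, was found in 6 of 11 windows of kynurenine and NAD genes (54.5%), against 49.8% of all windows and 43.1% of those of genes called higher.

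Iron genes included some of the larger rises. Trf, transferrin, stood at 22.6, 23.1 and 20.9 FPKM in N-MF and 570, 578 and 560 in M-MF, without overlap (4.62 ± 0.0327, limma adjusted p = 1.64e-17). The metalloreductase Steap1 stood at 0.13, 0.38 and 0.59 and then 34.8, 34.6 and 35.0 FPKM, and Slc39a14, which imports zinc and iron, rose from 2.11 ± 0.01 to 14.3 ± 0.288. In all, 7 of 20 iron handling genes were called higher and 0 lower, with a median log2 difference of 0.64. Rescaling to equal sums or by median ratio left 7 higher and 1 lower, and quantile normalization 5 higher and 1 lower.

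Of 26 cytokine receptors tested, 10 were called higher and 1 lower, with a median log2 difference of 0.88. Il13ra2, a decoy receptor for interleukin 13, stood at 0.13, 0.18 and 0.06 FPKM in N-MF and 12.8, 12.7 and 11.5 in M-MF (3.57 ± 0.062, limma adjusted p = 3.04e-14). Il1rl1, the receptor of interleukin 33, stood at 0.08 to 0.09 and then 5.94, 6.09 and 5.98 FPKM, and its ligand Il33 rose from a mean of 89.2 to 190, a call that the 3 scalings ended (0.97, 0.93 and 0.73). Csf2rb, the shared chain of the GM-CSF, interleukin 3 and interleukin 5 receptors, rose from 1.62 ± 0.155 to 18.5 ± 0.436 FPKM, and Il2rg, the common gamma chain, from 3.32 ± 0.14 to 24.7 ± 0.619. Il11ra1, the interleukin 11 receptor, fell from 301 ± 6.2 to 147 ± 2.32. Csf2rb and Il2rg are widely expressed by leukocytes, whose general markers are given above.

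Secreted immune factors did not all rise. Of 23 interleukins and growth factors 8 were called higher and 3 lower. Csf3, the neutrophil growth factor, stood at 0.40, 0.33 and 0.29 FPKM in N-MF and 43.2, 41.9 and 42.4 in M-MF (5.02 ± 0.038, limma adjusted p = 2.4e-17). Il6 stood at 198, 195 and 206 and then 72.5, 67.0 and 72.8 FPKM, so every M-MF library was below every N-MF library (-1.49 ± 0.0335, limma adjusted p = 3.58e-13). Of 22 complement genes 5 were called higher and 0 lower, and at any fold 11 passed higher and 7 lower. Their median log2 difference was 0.11, and the list summed to 8259 to 8340 FPKM in N-MF and 8252 to 8401 in M-MF. After median-ratio scaling or quantile normalization 4 were called higher and 1 lower. Cfd, factor D, which starts the alternative pathway, stood at 0.08, 0.16 and 0.24 and then 22.2, 24 and 19.6 FPKM. Masp1, a protease of the lectin pathway, rose from 1.61 ± 0.122 to 22.2 ± 0.345, and Cfi, which cleaves C3b, from 0.133 ± 0.0751 to 8.26 ± 0.0889. Of 32 interferon response genes 17 were called higher and 1 lower, the lower one being Ifit2 (17.5 to 8.17 FPKM), which lost its call with a pseudocount of 5 (-0.77) and without M-MF replicate 1 (-0.97) or N-MF replicate 1 (-0.9956). The ISRE was found, on either strand, in 3.17% of all windows and in 16 of the 25 windows of this list (64.0%). Of 24 chemokines 14 were called higher and 0 lower. Under the 3 scalings, in the same order as above, 11, 11 and 9 were called higher, and 8 with a pseudocount of 5. The NF-kappaB consensus was found in 6 of 17 chemokine windows (35.3%) against 5.12% of all. A motif found in a window is a match of letters, and lists of interferon, hypoxia and mitosis genes were built from genes known to respond, so these shares describe the lists only.

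**Figure D4:**
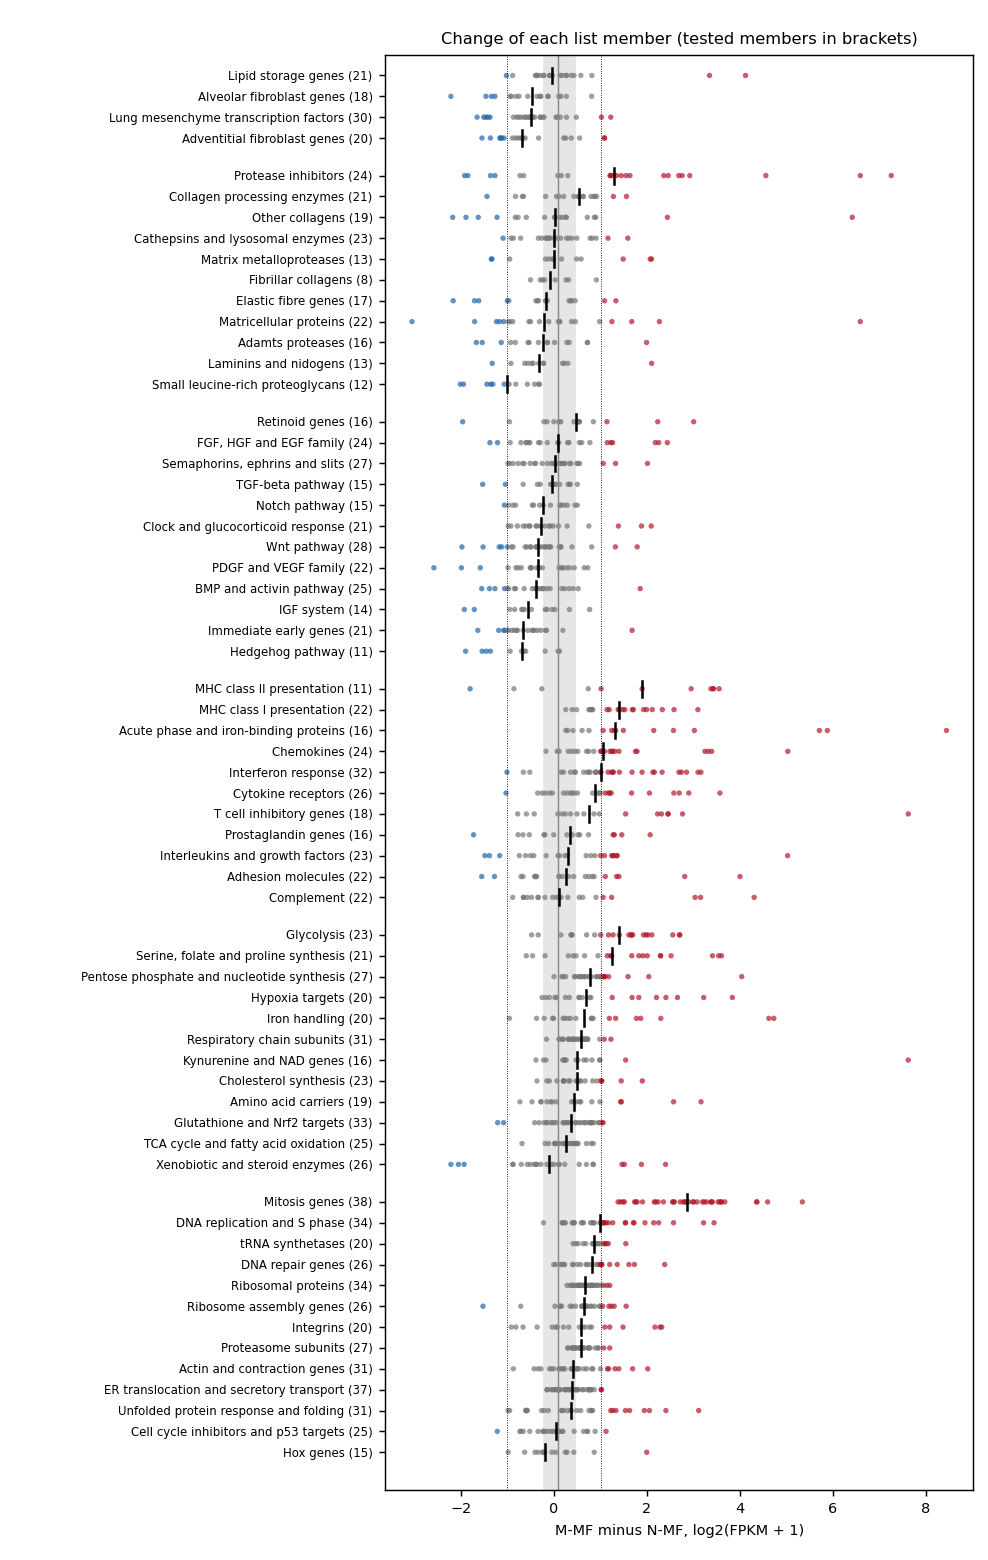
Log2 difference between M-MF and N-MF (x axis) of every tested member of 63 gene lists (rows, number of tested members in brackets), red where called higher, blue where called lower, with each list's median as a black bar. The grey band is the interquartile range of all tested genes, and the mitosis list has its median at 2.86 and the small leucine-rich proteoglycans at -1.02.

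Not every abundant gene changed. Of 13300 genes, 2918 did not pass at any fold. Among 875 genes at 100 FPKM or more in the MF libraries, the smallest differences were those of Mfge8, which tags dying cells for uptake, Cers2, a ceramide synthase, the caveolar protein Cavin1, the mRNA decay factor Zfp36l1 and the proton pump subunit Atp6v0c. Mfge8 stood at 287, 288 and 278 FPKM in N-MF and 286, 287 and 279 in M-MF, and the groups overlapped. Zfp36l1 stood at 222, 219 and 229 and then 225, 220 and 224. In MyoF Zfp36l1 went from a mean of 511 to 233 FPKM. After quantile normalization the 5 genes had log2 differences of -0.31 to -0.22 instead of values near 0.

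The metastasis effect in MF was set against that in MyoF, which shares no library with it. In MyoF 11.4% of genes were called higher and 3.24% lower. Of the 1240 genes called higher in MF, 831 were called higher in MyoF, 404 were not called and 5 were called lower. Of the 338 called lower in MF, 126 were called lower in MyoF, 209 were not called and 3 were called higher. The difference between the 2 effects was itself tested in the same model: over all genes the MF effect lay at least 2-fold above that in MyoF for 3.83% and at least 2-fold below it for 3.27%. Of the 1578 genes called in MF, 434 had such a difference, 286 with the MF effect above and 148 with it below.

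Tdo2 was among the 286. It stood at 4.95 FPKM in N-MyoF and 80.3 in M-MyoF, against 0.507 and 294 in the MF groups, and the MF effect exceeded the MyoF effect by 3.84 on the log2 scale (limma adjusted p = 1e-12). The largest such differences were those of Bpifa1, a secreted airway protein, and Car4, a carbonic anhydrase of lung capillary endothelium. Car4 stood at 17.3, 18.1 and 18.1 FPKM in N-MF and 692, 706 and 707 in M-MF, against means of 65.5 and 111 in MyoF (difference 4.47, limma adjusted p = 1.1e-15), while the endothelial genes Pecam1 and Cdh5 stood at 23.3 to 25.4 and 6.2 to 6.59 in N-MF and 31.6 to 31.95 and 9.02 to 9.52 in M-MF. The mesothelial genes Lrrn4 and Upk3b and the chitinase-like Chil3 completed the 6 largest. Of the 11 tested mesothelial genes 9 had a called difference with the MF effect above. In Cdh2, N-cadherin, the MF effect was 2.81 ± 0.0437 (0.897 ± 0.0551 to 12.3 ± 0.242 FPKM), and the MyoF means were 3.85 and 3.84. Slc39a14 and Sema3a, a guidance cue (2.10 ± 0.0964 to 11.5 ± 0.136 FPKM in MF), also had MF effects above those in MyoF, by 2.07 and 2.34.

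Neutrophil genes led the opposite group. S100a8, a calprotectin subunit, stood at 14.3, 13.8 and 10.9 FPKM in N-MF and 125, 118 and 119 in M-MF, against means of 55.6 and 6325 in MyoF, a difference of -3.68 (limma adjusted p = 2.7e-11). Ifitm6, Retnlg, S100a9, Padi4 and Wfdc17 were the other 5 with the largest such differences, and 14 of 16 neutrophil markers had a called difference with the MF effect below. The 8 genes called in opposite directions in the 2 subgroups had no common group. Scara5, a ferritin receptor of adventitial fibroblasts, stood at 723, 715 and 704 and then 342, 337 and 338 FPKM in MF, and rose from a mean of 9.37 to 26.7 in MyoF. Tubb4a, a neuronal beta-tubulin, rose from 24.8 ± 1.02 to 68.3 ± 0.301 FPKM in MF and fell from 173 to 59.2 in MyoF. Itih2 and Tnnt3 moved as Scara5 did, and Bpifa1, Tmem35a, Mbp and Ear1 as Tubb4a did. With a pseudocount of 5, Itih2, Tnnt3, Tmem35a, Mbp and Ear1 were not called in MF (-0.91, -0.55, 0.88, 0.85 and 0.87), nor were Ifitm6 (0.79) and Wfdc17 (0.75).

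**Figure D5:**
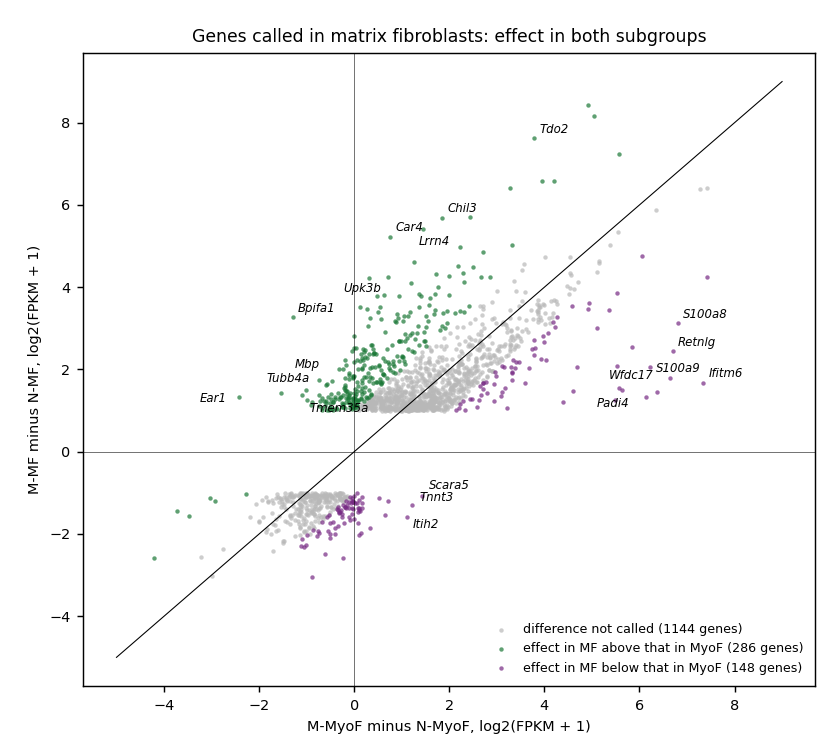
Log2 difference between metastasis and normal lung in MyoF (x axis) and in MF (y axis) for the 1578 genes called in MF, with the line of equal effects. Green points (286 genes) have a called difference with the MF effect above that in MyoF, as Tdo2 and Car4, and purple points (148 genes) below it, as S100a8 and Ifitm6.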

How the data were processed

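The values analysed are gene-level FPKM with 2 decimals for 20606 genes in 12 libraries, as the authors deposited them. Per the labels' protocols, RNA extracted with Trizol was amplified by a SMART-seq type method and made into libraries with a transposon. GRCm38 is named per the submitters' processing notes, and the sources used here do not give the aligner, counting tool, annotation or read depth. A gene's FPKM depends on all others in its library, so a few very abundant genes can shift the rest.

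The 13300 genes that reached 1 FPKM in 3 or more of the 12 libraries were fitted on log2(FPKM + 1) with limma 3.58.1 (R 4.3.3; 4 group means, mean-variance trend, Benjamini-Hochberg adjustment over all genes), after the procedure was tested on simulated data. A 2-fold call needed an adjusted p under 0.05 and a log2 difference of at least 1. Summaries and figures used Python 3.11.15 with pandas 2.3.3, numpy 2.4.6 and matplotlib 3.10.9. The 83 gene lists hold 1704 entries, of which 9 matched no gene and 5 matched by an older symbol. The members and lists were chosen with earlier results of these data known.

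Genes named were drawn from the 10 largest changes per direction by fold and by FPKM, and from near-absent genes that appeared. Unnamed gene models were left out of the largest changes. Up to 4 called members per direction and list were also eligible, as were defining markers of cell types, of which only some are given. The 5 flattest abundant genes and the 6 largest differences from MyoF per direction completed the choice. Same-numbered libraries deviated together from their group means (r of 0.482 to 0.796 over 18 pairs and 1830 genes at 50 FPKM or more). For 36 pairs of different number r was -0.683 to 0.38. Deviations within a group add up to 0, so these ranges are not independent. Libraries of the same number were thus alike in these data, and no label says what the numbers mark. Alternatives varied the pseudocount (0.1, 5), filter, scaling, replicate block, variance trend, groups fitted and libraries. In this design 0 columns belonged to no listed sample.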

Additional observations from a re-analysis of the deposited data

Results flagged for a closer look

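The effect of metastasis differed between MF and MyoF by at least 2-fold, by a limma test of the difference itself, for 434 of the genes called in MF. As the MF effect minus the MyoF effect on the log2 scale, the largest positive differences were 4.565 for Bpifa1, 4.469 for Car4, 3.98 for Lrrn4, 3.92 for Upk3b, 3.847 for Chil3 and 3.84 for Tdo2. The largest negative differences were -5.663 for Ifitm6, -4.251 for Retnlg, -4.162 for S100a9, -4.136 for Padi4, -4.027 for Wfdc17 and -3.677 for S100a8. Among genes called in opposite directions in the 2 subgroups, those lower in MF and higher in MyoF had differences of -2.689 (Itih2), -2.506 (Tnnt3) and -2.494 (Scara5). Those higher in MF and lower in MyoF had differences of 2.471 (Tmem35a), 2.519 (Mbp), 2.96 (Tubb4a) and 3.755 (Ear1), beside Bpifa1.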

How the results depend on the processing

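The 1240 genes called higher became 601 with a pseudocount of 5. The 338 called lower became 675 with a pseudocount of 0.1, 166 with 5, 525 with median-ratio scaling and 561 with quantile normalization, which also raised the genes lower at any fold from 4229 to 6432. The 434 genes whose effect differed from that in MyoF became 813 and 199 with pseudocounts of 0.1 and 5. With the replicate block, which pairs libraries by number, the counts were 1243 higher, 338 lower, 6240 and 4280 at any fold and 435 differing, so pairing moved no count by 1.5 times. Leaving out 1 library gave 1232 to 1245 higher, 341 to 347 lower, 5977 to 6028 and 4035 to 4097 at any fold, and 440 to 448 differing. Without the 4 libraries numbered 3, a setting chosen after seeing the data, they were 1234, 344, 5869, 3907 and 435. A fit to the MF libraries alone gives no count of differences. Of 310 named genes 228 kept the same call in each of the 17 settings. The cause of these shifts was not tested. Depth is unknown, so low FPKM carry no counting interval.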
